A study of Mus musculus with 7 samples.

Results

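Bpifb1 and Bpifb5 are neighboring mouse genes that code for secreted proteins of the bactericidal/permeability-increasing (BPI) fold family. They were examined in the RNA of 7 colon tumors, and they make up 2 of the 43346 genes counted. Both were chosen because their counts differed between tumors of mice carrying Dnmt3a(+/-) and Dnmt3a(+/+) bone marrow (BM), so the difference between these groups is described below without a test. The tumors were induced in a model of colitis-associated cancer (CAC), in which a single dose of the carcinogen azoxymethane (AOM, 10 mg/kg) was followed by 3 cycles of 3% dextran sulfate sodium (DSS), an agent that injures the colon lining.

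The BM donors of both groups carried Mx1-Cre, an interferon-inducible recombinase switched on with poly(I:C), on a Dnmt3a(+/+) background in the control group (n = 3 tumors) and with 1 floxed Dnmt3a allele, deleted before transplant, in the Dnmt3a(+/-) group (n = 4 tumors). Dnmt3a encodes a de novo DNA methyltransferase. Donor marrow was given to lethally irradiated wild-type congenic recipients, listed as 8 weeks of age in the labels and as younger in the methods, so the genotype differs in blood-derived cells while the epithelium and most stroma of every tumor came from wild-type hosts. The tumors came from 2 transplant experiments. BMT18 gave Dnmt3a(+/+) tumors 1 and 2 and Dnmt3a(+/-) tumors 1 and 2, and BMT8 gave Dnmt3a(+/+) tumor 3 and Dnmt3a(+/-) tumors 3 and 4. The labels number no animals, while the study describes the tumors as coming from mice of each group. Each tumor was taken as 1 sample.

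Proteins of this family share a boomerang-shaped lipid-binding fold. BPI itself, made by neutrophils, and the plasma protein LBP bind lipopolysaccharide of Gram-negative bacteria. The BPIFA and BPIFB proteins are secreted mainly by epithelia of the upper airway, mouth and salivary glands, where they bathe mucosal surfaces. BPIFB1, also called LPLUNC1, is a product of mucus-secreting cells of the airway. Bpifb5 codes for another long family member and is less well described.

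Total counts per tumor ran from 38472738 to 64314999, and values are given as CPM, counts scaled to a common TMM-adjusted library size. Dnmt3a(+/-) tumor 2 stood apart, at one end of a principal component with 42.9% of the variance. Genes of stratified squamous epithelium, a tissue that colon mucosa lacks, summed to 4957 to 28832 CPM in the other 6 tumors and to 327 CPM in Dnmt3a(+/-) tumor 2. All 14 genes of the colon epithelium list passed the filter on low counts, and their sums were 10846 to 24411 CPM with Dnmt3a(+/-) BM and 20127 to 38338 CPM with Dnmt3a(+/+) BM. Whole tumors were sequenced, so fewer cells of a type and less RNA per cell cannot be told apart.

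Both genes lie on the forward strand of chromosome 2 (GRCm38), Bpifb1 (ENSMUSG00000027485) at chr2:154190818-154220369 and Bpifb5 (ENSMUSG00000038572) at chr2:154223742-154240902, with 3372 bases between them and no overlapping gene on either strand. Of the 50-base windows in their transcripts, 0 of 3660 for Bpifb1 and 0 of 1588 for Bpifb5 occurred in a transcript of another gene. The annotation lists 3 Bpifb1 transcripts, among them 1 retained-intron transcript of 3545 bases, and 1 Bpifb5 transcript. Because the members were high in the same tumors, the 250 bases before the first annotated start of each gene (RefSeq, GRCm38.p6) are shown, with GC boxes in capitals (GGGCGG, or CCGCCC where it reads on the reverse strand), from chr2:154190568-154190817 for Bpifb1 and chr2:154223492-154223741 for Bpifb5.
Bpifb1: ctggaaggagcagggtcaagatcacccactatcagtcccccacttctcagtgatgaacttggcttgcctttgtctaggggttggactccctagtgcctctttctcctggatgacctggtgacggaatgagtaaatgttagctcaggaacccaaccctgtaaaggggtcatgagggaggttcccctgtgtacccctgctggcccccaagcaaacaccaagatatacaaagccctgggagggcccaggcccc
Bpifb5: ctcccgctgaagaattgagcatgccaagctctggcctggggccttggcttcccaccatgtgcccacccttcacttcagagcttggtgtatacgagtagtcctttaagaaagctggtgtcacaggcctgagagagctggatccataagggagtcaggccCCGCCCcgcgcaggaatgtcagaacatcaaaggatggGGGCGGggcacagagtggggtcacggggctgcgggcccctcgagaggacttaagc
Bpifb5 had GC boxes 55 bases before its start on the forward strand and 92 bases before it on the reverse strand. A GC box occurred in 35.7% of 32851 mouse windows of 300 bases (250 before and 50 after a start), on either strand. Over such windows Bpifb5 held 11 CpG dinucleotides, above 58.6% of all windows, and Bpifb1 held 3, above 23.3%, against a median of 7. RefSeq lists a second Bpifb1 start within the gene, whose window at chr2:154200130-154200429 held 1 CpG, above 5.43% of all windows. Searched on both strands, TATAAA (13.6% of all windows), CCAAT (37.4%), the forkhead motif TGTTTAC (3.65%) and the AP-1 motif TGANTCA (7.81%) were in none of the windows of these genes, and GGGCGG was in neither window of Bpifb1. The sequence letters say nothing of binding or of methylation, neither of which was measured here.

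Bpifb1 was nearly unread in the control tumors. Its raw counts were 6, 3 and 1 in Dnmt3a(+/+) tumors 1 to 3 and 3, 19, 416 and 81 in Dnmt3a(+/-) tumors 1 to 4. Tumors 3 and 4 of the Dnmt3a(+/-) group, both from BMT8, were high, tumor 2 was intermediate and tumor 1 lay inside the control range, so the groups overlapped. Exact 95% Poisson intervals, which cover counting error only, were 377 to 458 for Dnmt3a(+/-) tumor 3 and 0.0253 to 5.57 for Dnmt3a(+/+) tumor 3.

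Bpifb5 gave the same picture at higher counts, 10, 15 and 4 in Dnmt3a(+/+) tumors 1 to 3 and 10, 109, 586 and 118 in Dnmt3a(+/-) tumors 1 to 4. Dnmt3a(+/-) tumor 3 was again the highest and tumor 1 again within the control range. Tumors 2 and 4, with overlapping intervals of 89.5 to 131 and 97.7 to 141 reads, could not be ordered by raw count, whereas Bpifb1 was clearly lower in tumor 2 (11.4 to 29.7) than in tumor 4 (64.3 to 101). In CPM both genes ranked the 7 tumors identically, with Dnmt3a(+/-) tumors 3, 4 and 2 first, then Dnmt3a(+/+) tumor 1, Dnmt3a(+/-) tumor 1 and Dnmt3a(+/+) tumors 2 and 3. Among the last 4 the Bpifb1 intervals all overlapped.

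**Figure D1:**
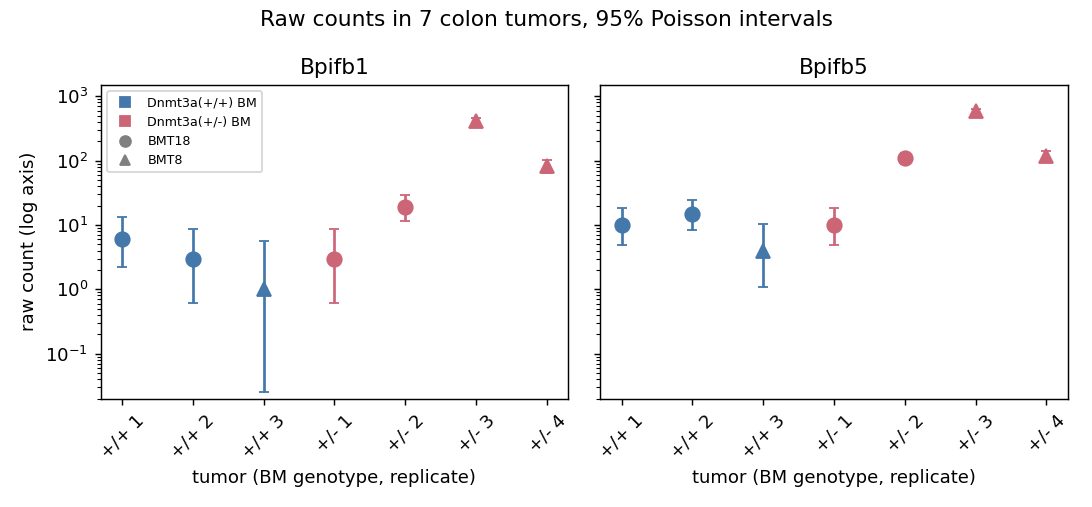
Raw counts of Bpifb1 (left) and Bpifb5 (right) in each tumor on a log axis, with exact 95% Poisson intervals. Colors mark BM genotype, circles mark BMT18 and triangles mark BMT8. Dnmt3a(+/-) tumor 3 is highest in both panels, at 416 and 586 reads, and Dnmt3a(+/-) tumor 1 lies among the controls.

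After scaling for library size, Bpifb1 stood at 0.161, 0.0468 and 0.0306 CPM in the control tumors and at 0.0748, 0.387, 8.45 and 2.19 CPM in Dnmt3a(+/-) tumors 1 to 4. The means were 0.0795 ± 0.0712 (SD, n = 3) and 2.77 ± 3.89 CPM (SD, n = 4), a ratio of 34.9, and Dnmt3a(+/-) tumor 3 held 76.1% of its group's summed CPM. Without that tumor the ratio was 11.1. The fitted log2 fold change was 5.10 (SE 1.67).

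Bpifb5 stood at 0.269, 0.234 and 0.122 CPM in the control tumors and at 0.249, 2.22, 11.9 and 3.19 CPM in Dnmt3a(+/-) tumors 1 to 4. Its means were 0.208 ± 0.0765 (SD, n = 3) and 4.39 ± 5.15 CPM (SD, n = 4), a ratio of 21.1, which became 9.05 without Dnmt3a(+/-) tumor 3, the holder of 67.8% of its group's CPM. The fitted log2 fold change was 4.37 (SE 1.23). For both genes the SD within the Dnmt3a(+/-) group exceeded its mean.

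The ratios of mean CPM differed between the transplant experiments. In BMT8, with 2 Dnmt3a(+/-) tumors and 1 control, they were 174 for Bpifb1 and 61.7 for Bpifb5. The BMT8 ratios rest on 1 Bpifb1 read and 4 Bpifb5 reads in the control. The ratio of summed counts, scaled by summed library sizes, was 188 for Bpifb1 (exact 95% counting interval 33.7 to 7457). For Bpifb5 it was 66.7 (25.9 to 246). In BMT18, with 2 tumors on each side, the ratios were 2.22 and 4.91. The ratio of summed counts there was 2.78 for Bpifb1 (counting interval 1.23 to 6.85) and 5.40 for Bpifb5 (3.49 to 8.68). These intervals pool the reads of tumors and leave out the spread between them. Of the 2 Dnmt3a(+/-) tumors of BMT18, tumor 2 was above the controls and tumor 1 within their range. Over the 15810 genes tested, a genotype-by-experiment term was called for 0 by edgeR's quasi-likelihood test at an adjusted p under 0.05. Of the same 15810, 730 had an unadjusted p under 0.05. BMT8 has 1 control tumor, so within it the genotype difference has no replicate check on the control side.

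At an adjusted p under 0.05 and a fold change past 2-fold, edgeR called neither gene and 0 of the 15810 genes tested (0%). Before adjustment, a p under 0.05 was reached by 922 genes (5.83%) in the direction of more reads with Dnmt3a(+/-) BM and by 822 (5.2%) in the other. With scaling by library size alone that split was 1687 and 288. By DESeq2, which called 302 genes in all, both members were among the 245 of 15936 genes called higher (1.54%). Every Dnmt3a(+/-) tumor was above every control tumor for 961 genes (6.08%), and neither member was one of them. The members were selected on this contrast, so these counts describe them and test nothing. Both passed the low-count filter only through Dnmt3a(+/-) tumors.

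Levels of the 2 genes were set side by side per kilobase of coding transcript (1699 bases for Bpifb1, 1637 for Bpifb5). Bpifb1 reached 4.97 CPM per kb and Bpifb5 7.27 CPM per kb in Dnmt3a(+/-) tumor 3, and 1.29 and 1.95 in tumor 4. In tumor 2 the gap was wider, at 0.228 and 1.36 CPM per kb. Among all tested genes, ranked per length on the union of exons, Bpifb1 in tumor 3 stood at the 40.8th percentile and Bpifb5 at the 64.6th, so even in the tumor with most reads neither was an abundant transcript. That union was 3617 bases for Bpifb1, with its retained-intron transcript, and 1637 for Bpifb5. On it Bpifb1 was at 2.33 CPM per kb in tumor 3, so the 2 percentiles do not compare the genes on coding length.

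The share of Bpifb1 in the reads of both genes was not equal in the 3 tumors with most reads. It was 41.5% (exact Clopper-Pearson 95% interval 38.4 to 44.6) in Dnmt3a(+/-) tumor 3 and 40.7% (33.8 to 47.9) in tumor 4, with overlapping intervals, but 14.8% (9.18 to 22.2) in tumor 2. The 3 control tumors, at 37.5%, 16.7% and 20%, had intervals together spanning 0.505 to 71.6% and could not be placed. Intervals cover counting error only, and the tumors with the higher share both came from BMT8.

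Most other members of the family had few reads or none. Of 15 further genes, Bpifb2, Bpifb3, Bpifb6, Bpifb9b, Bpifa2, Bpifa3 and Bpi had 0 counts in every tumor (7 genes), each of which allows up to 3 counts per library. Another 5 had a few reads and fell below the filter. Bpifa1, a short airway-lining protein also called SPLUNC1, had 2 reads, all in Dnmt3a(+/-) tumor 4. Bpifa5 had 4 reads, all in Dnmt3a(+/-) tumor 3, and Bpifb9a had 6, all in tumor 2. Bpifa6 had 3 reads in Dnmt3a(+/-) tumor 3 and 1 in Dnmt3a(+/+) tumor 1. Bpifb4 had 6, 6 and 11 in the controls and 6, 1, 7 and 19 with Dnmt3a(+/-) BM, overlapping ranges.

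The remaining 3 were tested, and none passed. Lbp, which hands lipopolysaccharide to CD14, had 181, 315 and 121 counts in the controls and 181, 479, 305 and 134 with Dnmt3a(+/-) BM, and its log2 fold change was 0.42 (SE 0.39, edgeR adjusted p = 0.719). Pltp, a phospholipid transfer protein of plasma, had a log2 fold change of 0.23 (SE 0.70, edgeR adjusted p = 0.937). Bpifc had 580 counts in Dnmt3a(+/-) tumor 1, the tumor lowest for the members in its group, and 1 count in tumor 2. Its log2 fold change was 0.60 (SE 1.5, edgeR adjusted p = 0.924).

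**Figure D2:**
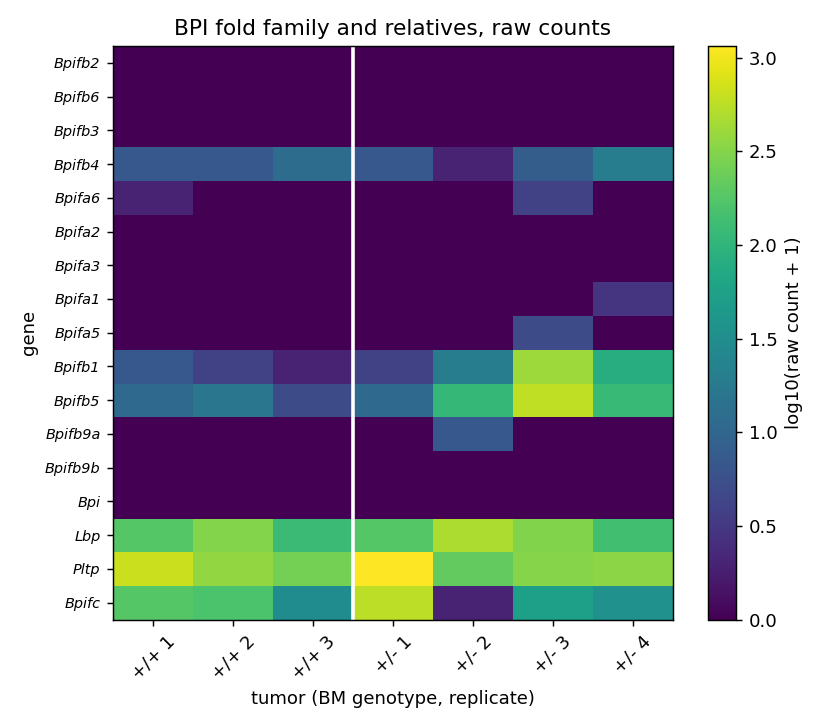
Raw counts of 17 BPI fold genes and relatives in the 7 tumors, as log10 of the count plus 1, in chromosomal order. The white line parts the Dnmt3a(+/+) from the Dnmt3a(+/-) tumors. Bpifb1 and Bpifb5 brighten in Dnmt3a(+/-) tumors 2 to 4, while their neighbors are dark throughout or near it.

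No tested gene near the pair differed between the groups by the test. The Bpif cluster, 13 genes at chr2:153875045-154320646, held 11 genes besides the members, of which 6 had 0 counts throughout and none exceeded 19 in a tumor. Within 1 Mb of the member starts lay 55 further genes, 24 of them tested, and 0 of these had an unadjusted p under 0.05 by edgeR (lowest 0.149). Their log2 fold changes ran from -0.37 to 0.70, 13 above and 11 below 0, with a median of 0.013 against 0.0025 over all genes. The nearest tested genes outside the cluster, Gm14494 and Cdk5rap1, were at 0.06 and 0.07.

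**Figure D3:**
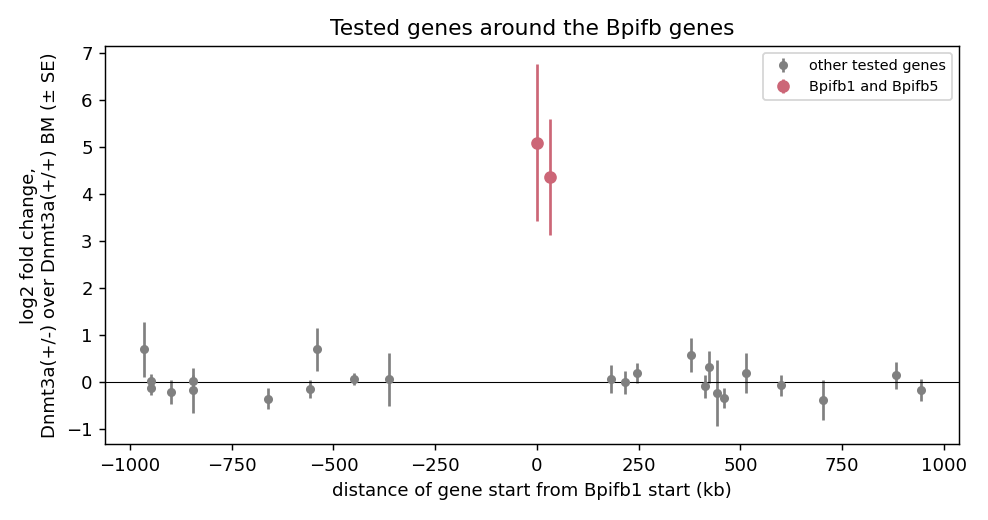
Log2 fold change (± SE) of each tested gene within 1 Mb against the distance of its start from that of Bpifb1, in kb. The members stand at 5.10 and 4.37, and the other 24 genes lie between -0.37 and 0.70.

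Genes for recognition of lipopolysaccharide, the ligand bound by BPI and LBP, were tested next, in a list that also holds receptors for other bacterial products. Of 17 tested, 0 were higher and 1 was lower at an unadjusted p under 0.05, with a median log2 fold change of -0.10. That gene was Tlr1, a receptor for bacterial lipopeptides rather than lipopolysaccharide, at -0.999 (SE 0.37, edgeR adjusted p = 0.413). The list summed to 385 to 426 CPM with Dnmt3a(+/-) BM and to 437 to 456 CPM in the controls.

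The members are airway-type products, and other airway genes were looked for. Of 14 airway secretory and lung epithelial genes, Nkx2-1, the lung lineage regulator, and Msmb and Sftpb had 0 counts in every tumor. Muc5ac had at most 1 read in a tumor, Muc5b at most 5, Scgb3a1 at most 3 and the club cell protein Scgb1a1 at most 11, the last in Dnmt3a(+/-) tumor 1 (these genes were named after their counts were seen). Sftpd, a surfactant collectin also named after its counts were seen, had 610 reads in Dnmt3a(+/-) tumor 2 and at most 22 elsewhere. Just 3 were tested, with 0 past an unadjusted p of 0.05 and a median of -0.11. Cyp2f2, the most abundant, had 102 reads in Dnmt3a(+/-) tumor 2 and 3226 to 20088 in the others, with the same tumor low as for squamous genes. Lypd2 had 0 reads there and 58 to 444 elsewhere, and Ager 11 to 60 in all 7.

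Genes of multiciliated cells, another cell type of the airway lining, had few reads. Deup1 had 0 counts throughout, the ciliogenesis regulator Foxj1 had 3 to 15 reads per tumor (named after its counts were seen), and the 3 tested genes of 10 had a median log2 fold change of -0.27 with 0 past an unadjusted p of 0.05. The list's summed level was 3.32 to 5.02 CPM in the controls and 2.28 to 5.81 CPM with Dnmt3a(+/-) BM.

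Muc6, the gel-forming mucin of gastric and pyloric glands, was the one gene among 8 tested gastric and pyloric genes with an unadjusted p under 0.05. Its counts were 17, 41 and 54 in the controls and 67, 311, 651 and 212 with Dnmt3a(+/-) BM, highest in tumor 3 as for both members. The log2 fold change was 2.89 (SE 0.79). The edgeR adjusted p was 0.361 and that of DESeq2 0.00367, so the call depended on the tool. The list's median was 0.30, with 5 genes above 0 and 3 below, and Gkn2 had 0 counts in every tumor. Ctse, the most abundant, was at -0.61. The list's summed level was lower with Dnmt3a(+/-) BM, at 76.3 to 162 CPM, than in the controls, at 163 to 213 CPM.

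Colon goblet cell genes, which mark mucus-secreting cells, were all below 0, 14 of 14, with a median of -0.92, and 3 had an unadjusted p under 0.05. Without Dnmt3a(+/+) tumor 2 the median was -0.49, without Dnmt3a(+/-) tumor 4 it was -0.59, and with experiment as a covariate it was -0.49. The number at an unadjusted p under 0.05 ran from 1 to 6 when 1 tumor was left out. Spink4 was at -1.13 (SE 0.16, edgeR adjusted p = 0.361, DESeq2 adjusted p = 2.25e-05) and Agr2, a secretory-pathway disulfide isomerase, at -0.92 (SE 0.32, edgeR adjusted p = 0.406). Fcgbp, the most abundant, was at -0.96. Mean log2 CPM of the list gave a two-sided exact permutation p of 0.314, where 3 against 4 tumors cannot go below 0.0286. The 3 tumors highest for Bpifb1 and Bpifb5 had goblet gene sums of 741 to 2615 CPM, against 1700 to 4923 CPM in the controls, overlapping ranges. Dnmt3a(+/-) tumor 1, at control level for both members, had a goblet sum of 1903 CPM, inside both ranges.

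Epithelial antimicrobial genes lay mostly below 0, 16 of 21 tested, with 5 above. At an unadjusted p under 0.05, 2 were higher and 4 lower, with a median of -0.58. The list summed to 7695 to 20891 CPM with Dnmt3a(+/-) BM and to 23502.8 to 29912.5 CPM in the controls. Lcn2, which captures bacterial siderophores, had 789, 1139 and 978 counts in the controls and 2515, 26982, 3111 and 3661 with Dnmt3a(+/-) BM, and its log2 fold change was 3.08 (SE 0.89, edgeR adjusted p = 0.373). Its highest tumor was tumor 2, not tumor 3. Duoxa2, the maturation factor of the DUOX2 oxidase, was at -1.01 (SE 0.28), and Lypd8, which keeps flagellated bacteria off the colon epithelium, at -1.15 (SE 0.38), both short of an adjusted p of 0.05. In the colon epithelial list 1 of 14 was higher, the intestinal regulator Cdx2 (0.79), and 3 were lower, among them Cdx1 (-1.15, edgeR adjusted p = 0.361, DESeq2 adjusted p = 0.0322), with a median of -0.65.

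Markers of other cells also differed between tumors, and their part in the members' levels was not tested. Endothelial genes were all above 0, with 5 of 8 past an unadjusted p of 0.05 and a median of 1.66, and summed to 19.8 to 36.7 CPM in the controls and to 36.2, 155, 52.9 and 79.9 CPM in Dnmt3a(+/-) tumors 1 to 4. Kdr, the main VEGF receptor, was at 1.90 (SE 0.59) and Pecam1 at 1.56 (SE 0.46), with edgeR adjusted p of 0.383 and 0.377 and DESeq2 adjusted p of 0.0322 and 0.0354, so these calls too depended on the tool. The study, which used DESeq2, lists the VEGF receptor genes, Kdr among them, as not differentially expressed. The DESeq2 call for Kdr here differs from that. Fibroblast genes, with 1 of 8 higher and a median of 0.73, summed to 1066 CPM in Dnmt3a(+/-) tumor 2 and to 177 to 393 CPM in the other 6 tumors. B cell and plasma cell genes had a median of 1.35, macrophage genes 0.80, neutrophil genes -0.09 (1 of 9 higher, Mmp9, edgeR adjusted p = 0.406, DESeq2 adjusted p = 0.0387), T cell genes -0.35 and smooth muscle genes -0.04. Several of these medians hung on 1 tumor. Without Dnmt3a(+/-) tumor 2, whose macrophage sum was 611 CPM against 82.2 to 155 CPM in the other 6, the macrophage median was 0.031 and the fibroblast median 0.22. Without Dnmt3a(+/+) tumor 1 the B cell median was 3.70, and without Dnmt3a(+/+) tumor 3 the T cell median was 0.071 and that of smooth muscle -0.61. The tumor highest for the members, Dnmt3a(+/-) tumor 3, was highest for neither the endothelial nor the fibroblast list. It was the highest of the 7 tumors for smooth muscle genes (1185 CPM summed). By mean log2 CPM it was also highest for the B cell list (0.472) and the gastric and pyloric list (-0.332), but by summed CPM for neither. Its B cell sum was 25.2 CPM, against 202 CPM in Dnmt3a(+/-) tumor 2 and 71.4 CPM in Dnmt3a(+/+) tumor 1. Its gastric and pyloric sum was 153 CPM, against 163 to 213 CPM in the controls. By exact permutation test no list reached a p under 0.05. The lowest was 0.0571, for colon epithelium, and 0.686 after Benjamini-Hochberg adjustment over the 16 lists. With 35 splits of the tumors, that adjustment could not bring 1 list alone under 0.05. Mean log2 CPM of the colon epithelium list did not overlap between the groups. It ran from 8.82 to 9.25 with Dnmt3a(+/+) BM and from 8.21 to 8.81 with Dnmt3a(+/-) BM. All other lists overlapped by this measure. The summed CPM of the colon epithelium list did overlap, at 10846 to 24411 with Dnmt3a(+/-) BM and 20127 to 38338 with Dnmt3a(+/+) BM. By summed CPM the epithelial antimicrobial, lipopolysaccharide recognition and gastric and pyloric lists did not overlap, each lower with Dnmt3a(+/-) BM. The remaining lists did.

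**Figure D4:**
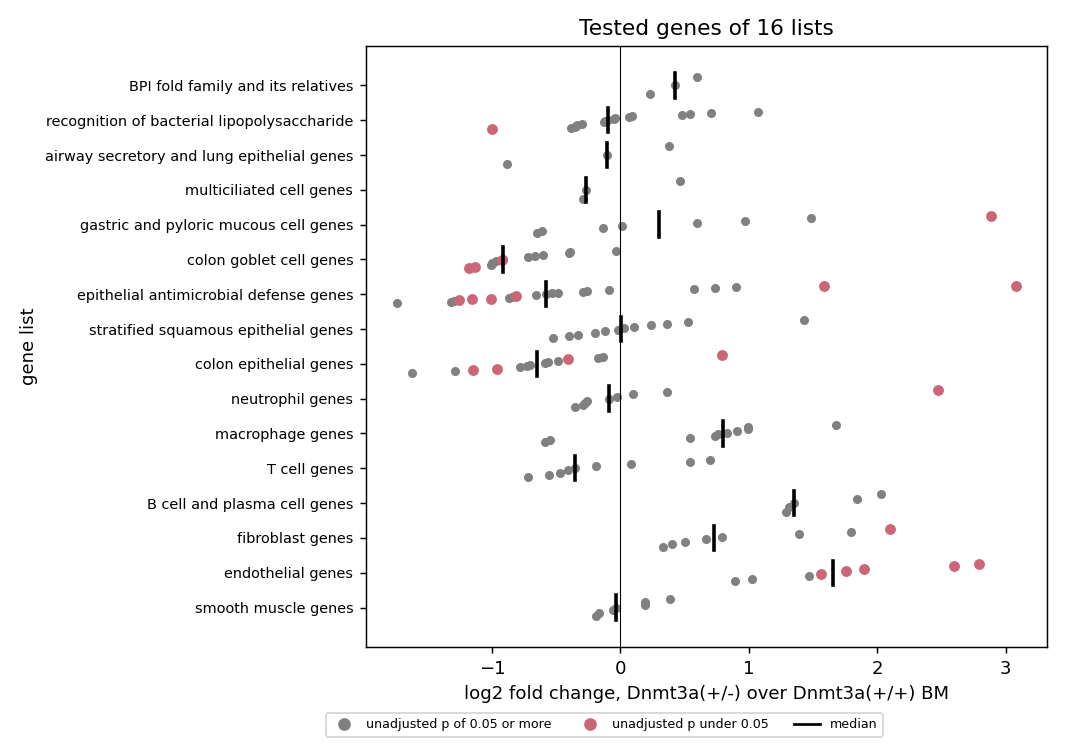
Log2 fold change of each tested gene in 16 lists, with the members left out. Red points have an unadjusted p under 0.05 by edgeR, and black bars are list medians. The goblet median is -0.92 and the endothelial median 1.66.

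Across the 7 tumors the members followed each other, with Pearson r = 0.965 on log2 CPM (prior count 2) and Spearman rho = 1. These values are descriptive, since all genes share 7 libraries and a difference between 2 groups. Bpifb5 ranked 2 among 15809 genes for likeness to Bpifb1, behind 1700029I15Rik (r = 0.980), and Bpifb1 ranked 11 for likeness to Bpifb5.

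The 10 genes most like Bpifb1 included Podn, a small leucine-rich proteoglycan (r = 0.954), Scx, a tendon transcription factor (r = 0.940), Stac (r = 0.953), Rasl11b (r = 0.953), Itih5l-ps (r = 0.946), Vamp2 (r = 0.945), Pgbd5 (r = 0.941) and Fndc10 (r = 0.933). Those most like Bpifb5 were Hist3h2ba (r = 0.985), Snph (r = 0.981), Zdhhc14 (r = 0.979), Fndc10 (r = 0.976), 1700029I15Rik and Itih5l-ps (both r = 0.975), Dynlt1-ps1 (r = 0.973), Zbtb8a (r = 0.971), Pgbd5 (r = 0.967) and Thtpa (r = 0.965). The lists shared 4 genes. None of these genes, the members aside, had as wide a range as Bpifb1 or Bpifb5. Pgbd5 came nearest, with 16, 11 and 4 counts in the controls and 17, 65, 168 and 58 with Dnmt3a(+/-) BM, a 27.9-fold range in CPM against 97.3-fold for Bpifb5. Vamp2 (1.22-fold) and 1700029I15Rik (1.37-fold) hardly varied, so likeness of pattern was not likeness of size. Muc6 ranked 142 for Bpifb1 (r = 0.818) and 85 for Bpifb5 (r = 0.889). An r over 0.9 was reached by 30 genes with Bpifb1 and by 69 with Bpifb5. The order depended on the measure. Ranked by Spearman rho instead, 3 of the 10 genes most like Bpifb1 remained, and 2 of the 10 for Bpifb5.

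**Figure D5:**
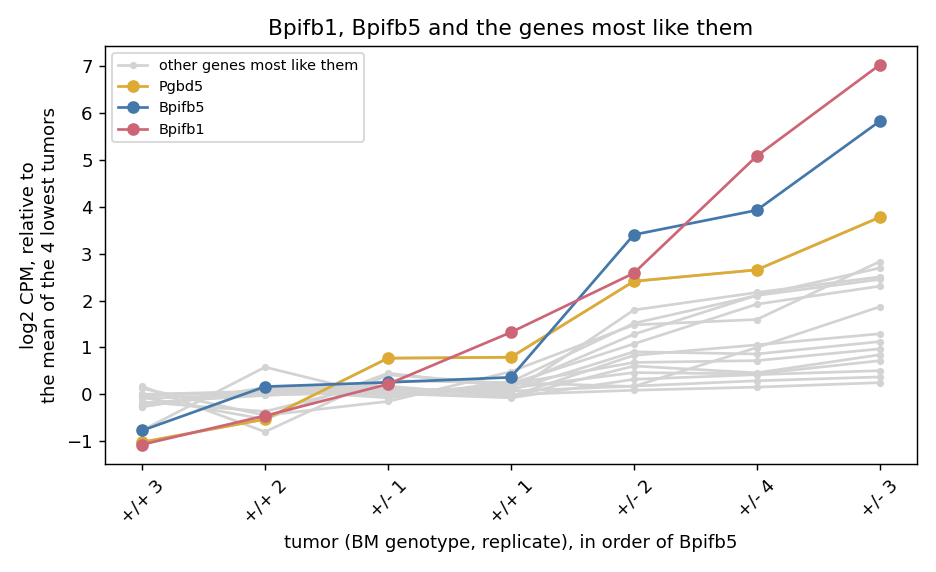
Log2 CPM of Bpifb1, Bpifb5, Pgbd5 and the other genes most like them (grey), relative to the mean of the 4 lowest tumors, with tumors in the order of Bpifb5. All climb toward Dnmt3a(+/-) tumor 3, the members most steeply.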

How the data were processed

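RNA from 7 whole colon tumors (100 ng each) was sequenced from polyA-selected libraries. Per the methods and the submitters' processing notes, the authors trimmed reads with Trimmomatic, used STAR 2.7.3a for alignment (mouse build 38) and RSEM v1.2.31 for gene quantification. The deposited table holds RSEM estimated counts as whole numbers, with no normalization. The annotation release is not given in the sources used here, and names and positions came from GENCODE M21 (42462 of 43346 genes had a symbol, and genes without one held 0.104% of counts). Read splitting by RSEM can shift small counts of genes with shared sequence, which the members lack.

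In R 4.3.3, edgeR 4.0.16 (TMM, filterByExpr, quasi-likelihood test, Benjamini-Hochberg) compared 4 Dnmt3a(+/-) with 3 Dnmt3a(+/+) tumors over 15810 genes. Genes were called past 2-fold in either direction at an adjusted p under 0.05. DESeq2 1.42.0, which the authors used, was an alternative, as were library size scaling, other filters and prior counts, transplant experiment as a covariate, 1 experiment alone, a replicate block and leaving out each tumor. Where the filter dropped a member under an alternative, it was kept in that fit, a choice made after seeing the data, as was the use of coding transcript lengths. Scripts were tested on simulated data. The closest pair of tumors differed beyond counting noise (chi-square per degree of freedom 86.6), so all 7 were kept.

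Named genes were the members, all family genes, the 2 lowest p-values and the most abundant gene of each list, airway, ciliated and gastric genes at 0 in every tumor, the 10 genes most like each member by Pearson r, and the nearest tested genes beside the cluster. The members and lists were chosen with earlier results of these data known. Depth was 38472738 to 64314999 counts per tumor. Poisson and binomial intervals cover counting error only.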

Additional observations from a re-analysis of the deposited data

Results flagged for a closer look

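Within the 4 Dnmt3a(+/-) tumors, 11 of 77 values examined had 1 tumor set apart from the other 3 by Dixon's test, which weighs the gap against the range. For independent, normally distributed values chance flags about 1 in 20, or 3.85. These values share tumors and need not be normal, so 11 cannot be read as an excess. Of the 11 flags, 5 were Dnmt3a(+/-) tumor 1, 5 were tumor 2 and 1 was tumor 4. Bpifb1 and Bpifb5 themselves were not among them. In tumor 1 the flagged high values were Bpifc at 14.5 CPM, the squamous gene Lor at 110 CPM, Lypd2 at 11.1 CPM and the adaptor Myd88 at 54.6 CPM. The mean of the neutrophil list was flagged there too, at 2.82 log2 CPM. Some of these were at control level. Myd88 had a control mean of 55.2 CPM, and the neutrophil mean was 2.48 to 2.88 log2 CPM in the controls. Lypd2 had 444 reads in Dnmt3a(+/-) tumor 1 and 412 in Dnmt3a(+/+) tumor 1. In tumor 2 the high values were Col1a1 at 238 CPM, Jchain at 195 CPM, Lcn2 at 549 CPM, Lyz2 at 358 CPM and Mmp9 at 52.9 CPM. In tumor 4 the mean of the colon goblet cell list was low at 4.43 log2 CPM. Whether these values bear on the members was not tested.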

How the results depend on the processing

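Bpifb1 and Bpifb5 stayed above 0 under every alternative run. From log2 fold changes of 5.10 and 4.37, they fell to 1.24 and 2.32 in BMT18 tumors alone, and leaving out 1 tumor gave 3.45 (without Dnmt3a(+/-) tumor 3) to 6.02 for Bpifb1 and 3.15 to 4.78 for Bpifb5. Experiment as a covariate gave 2.99 and 3.42. Tumors numbered 1 deviated together (r = 0.57) but those numbered 2 and 3 did not (0.071 and -0.038), so the numbers were not taken as pairs. A replicate block gave 3.18 and 3.24 and a goblet median of -0.38. The cause of these shifts was not tested. Genes called rose from 0 to 302 with DESeq2 and stayed at 0 when any 1 tumor was left out. Genes at an unadjusted p under 0.05 went from 922 higher and 822 lower to 1687 and 288 by library size alone (median log2 fold change over all genes 0.21), and to 567 higher in BMT18. Leaving out 1 tumor gave 443 to 1201 higher and 440 to 1010 lower (lowest without Dnmt3a(+/+) tumor 2, and 492 lower without Dnmt3a(+/-) tumor 2).

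List medians that moved by more than the spread between tumors were the family (0.67 by library size, 0.0096 with the replicate block, -0.63 to 0.83 leaving out 1 tumor), airway (-1.32 with the block, -1.46 to 0.31), multiciliated (-0.60 to 0.55), gastric (0.10 to 0.89), epithelial defense (-0.072 in BMT18, -0.77 to 0.0068), neutrophil (0.11 by library size, -0.31 to 0.032) and B cell genes (3.00 with the block, 1.29 to 3.70). Of the named genes, Cd14 changed sign by library size (0.20) and in BMT18 (0.10), and Cyp2f2 by library size (0.027), with the covariate (0.078) and in BMT18 (0.074). In BMT18 Acta2 was at -0.42 and Actg2 at -0.86. With the covariate Gm14494 was at -0.015 and Tagln at 0.26. With the replicate block Ager was at -0.39, Bpifc at -0.61, Cdk5rap1 at -0.054, Gm14494 at -0.20, Lor at -1.15 and Tagln at 0.20. Leaving out 1 tumor changed the sign of Acta2 (-0.29 to 0.68), Actg2 (-0.21 to 0.83), Ager (-0.40 to 0.72), Bpifc (-2.03 to 1.30), Cd14 (-0.11 to 0.079), Cdk5rap1 (-0.12 to 0.26), Cyp2f2 (-1.46 to 1.06), Gm14494 (-0.28 to 0.43), Jchain (-0.84 to 5.20), Krt13 (-1.85 to 0.78), Lor (-2.65 to 1.84), Ltf (-1.65 to 0.80), Lyz2 (-0.012 to 2.02), Pltp (-0.63 to 0.83), Rsph1 (-0.60 to 0.028) and Tagln (-0.76 to 0.46). Counting error weighs most where Bpifb1 had 1 to 6 reads, in the control tumors and Dnmt3a(+/-) tumor 1.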
